A study of Saccharomyces cerevisiae with 4 samples.

Results

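The genes described here are the sensor of the yeast unfolded protein response, IRE1, the transcription factor gene it acts on, HAC1, and 5 genes whose products take part in HAC1 mRNA processing or regulate the pathway: TRL1, TPT1, PTC2, ADA2 and GCN5. They were taken by name from the deposited table, which lists 7 of 7 among its 6782 rows. All libraries came from Saccharomyces cerevisiae of the W303 background that carries, in a single integrated copy at the LEU2 locus, the construct 6xIAPP behind a promoter switched on by estradiol. IAPP, islet amyloid polypeptide, is a human pancreatic hormone that can form amyloid. The induced group, 2 log-phase cultures, received 100 nM estradiol for 6 h. The uninduced group, also 2 log-phase cultures, received the solvent DMSO for 6 h and carried the same construct. Libraries with estradiol and no construct were not analysed here, so the inducer and the construct cannot be told apart.

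When misfolded proteins build up in the endoplasmic reticulum (ER), Ire1, a membrane kinase and endoribonuclease, clusters and cuts the HAC1 mRNA at both ends of an unconventional intron, outside the spliceosome. The tRNA ligase Trl1 joins the exons, and the phosphotransferase Tpt1 removes the phosphate that the ligation leaves at the junction. The intron holds back translation, so that Hac1, a bZIP activator of ER chaperone and degradation genes, is made mainly from the spliced mRNA. The phosphatase Ptc2 dephosphorylates Ire1 and dampens the response, and Ada2 and Gcn5, a coactivator and a histone acetyltransferase of the SAGA and ADA complexes, are needed for a full response.

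HAC1 lies on the plus strand of chromosome VI at 75179 to 76147 (build R64), with a first coding exon of 661 bases, an intron of 252 bases at 75840 to 76091 and a second exon of 56 bases. The bases around both cuts, read from the reference genome, are shown because Ire1 acts on them; exon bases are in capitals and intron bases in lower case, 20 on each side of a cut.
HAC1 5′ splice site, chrVI:75820-75859: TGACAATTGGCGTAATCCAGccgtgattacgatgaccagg
HAC1 3′ splice site, chrVI:76072-76111: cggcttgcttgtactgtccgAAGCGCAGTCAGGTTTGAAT
The spliced frame holds 238 codons before its stop and the unspliced frame 230, of which the first 220 are shared, so splicing exchanges a tail of 10 codons for a tail of 18. Pairing between the leader and the intron is known to hold back translation of the unspliced mRNA. The longest perfectly complementary stretch between the 100 bases before the start codon and the intron was 11 bases long, from 32 to 22 bases before the start codon and at intron bases 105 to 115; complementary bases are in capitals.
HAC1 leader, chrVI:75147-75157: CTCCTCCCCCA
HAC1 intron, chrVI:75944-75954: TGGGGGAGGAG
The deposited values are totals per gene and do not separate spliced from unspliced HAC1 mRNA. The intron makes up 26.0% of the coding span, and whether reads within it were counted is not given in the sources used here. Values of HAC1 per coding length, given below, divide by the exons alone. Whether splicing itself alters the HAC1 total, and so its fold change, was not tested.

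**Figure D1:**
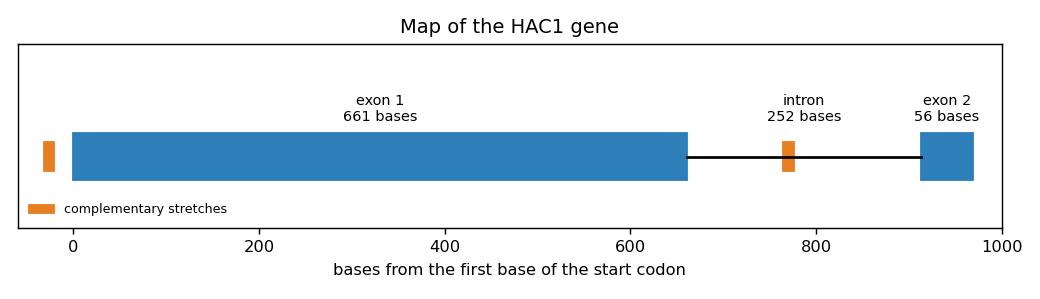
Map of HAC1 drawn to scale, in bases from the start codon: boxes are the coding exons of 661 and 56 bases, the line is the intron of 252 bases, and the orange blocks mark the 11 complementary bases before the start codon and within the intron.

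Levels are the deposited normalized CPM values, reads per gene scaled by library size, and whole reads recovered from them came to 11694161 and 14724917 in induced libraries and 15582338 and 10397606 in uninduced libraries. The lowest count of any of the 7 genes was 241 reads, for ADA2 in induced library 1, and the highest 19377, for HAC1 in induced library 2. Each fold change is the induced mean less the uninduced mean of log2(CPM + 1), given ± its standard error, from limma across the 6037 genes with a mean of at least 1 CPM, and a call is a Benjamini-Hochberg adjusted p under 0.05. The design text calls the cultures biological replicates, and with 2 libraries against 2 an exact permutation test of a single gene cannot give a two-sided p under 0.333. In bulk RNA such as this, a change in the share of cells that hold an mRNA and a change per cell cannot be told apart. Of the mating-type markers, the a-specific MFA1, MFA2 and AGA2 were under 0.65 CPM in each library, BAR1 and STE6 were called higher and STE2 was not called; the 6 summed to 83.9 and 81.8 CPM in induced libraries, against 52.5 and 49.8 CPM in uninduced libraries. The alpha-specific MF(ALPHA)1, MF(ALPHA)2, STE3 and SAG1 fell (-3.52 to -0.94) and summed to 574 and 579 CPM in induced libraries, against 2540 and 2524 CPM in uninduced libraries. Their part in the results below was not tested.

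Of the 7 genes, HAC1 and IRE1 rose, PTC2, ADA2, TRL1 and GCN5 fell, and TPT1 did not pass the test. The 6 of 7 called stand against 72.7% of all genes tested (35.6% higher, 37.0% lower), a share so large that a call alone says little about these genes. Likewise 7 of 7 had groups that did not overlap, against 86.0% of all genes. Against a change of 1.2-fold, 3 of 7 passed (HAC1, PTC2 and ADA2), against 44.5% of all genes. HAC1 and PTC2, 2 of 7, had an adjusted p under 0.05 in the authors' deposited table, against 38.4% of its rows. Its 6782 rows include genes below the filter used here, and of the 6037 genes tested 2530 had such a value there. The median fold change of the 7 genes was -0.18 on the log2 scale, beside 0.00 over all genes tested. When total reads set the library scale, the median over all genes moved to 0.12 and the calls among all genes were 60.0% higher, against 49.1% with the authors' scaling; among the 7 genes the split was then 3 higher and 3 lower, against 2 and 4.

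**Figure D2:**
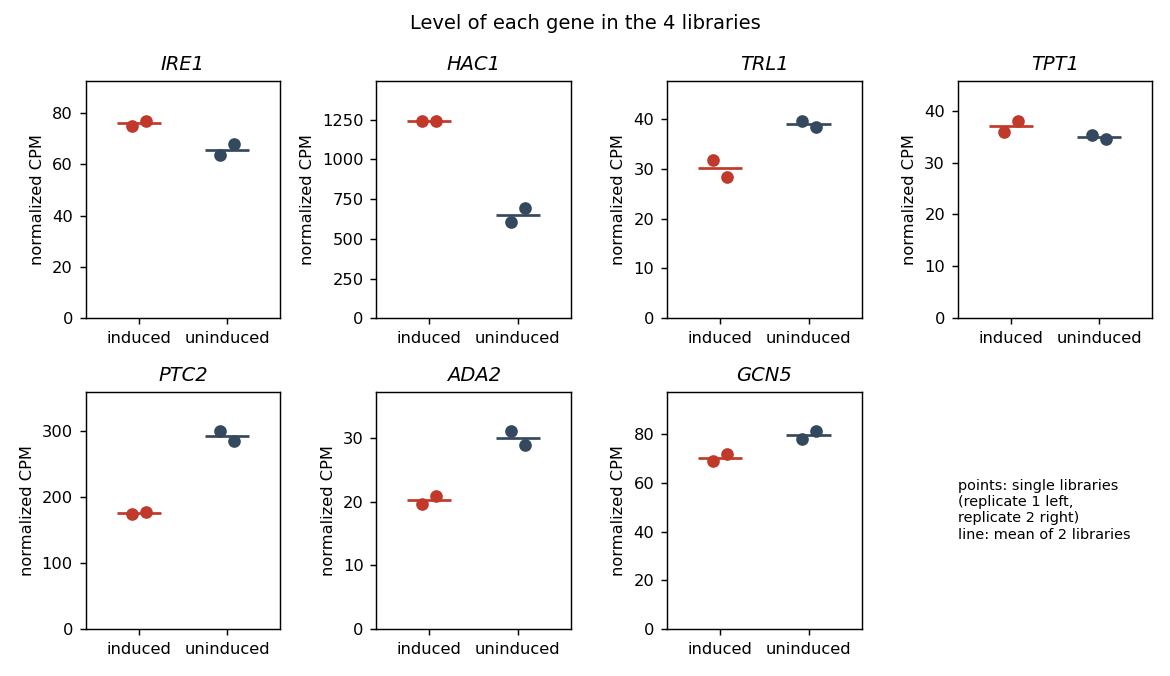
Level of the 7 genes in normalized CPM (vertical axes from 0) in each induced and uninduced library; points are libraries and lines are means of 2. HAC1 sits at 1241 and 1245 CPM in the induced libraries and at 609 and 696 CPM in the uninduced ones, and TPT1 shows the smallest gap between its groups.

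IRE1, the sensor, is a gene of 3348 coding bases on the minus strand of chromosome VIII (258244 to 261591). It had 75.1 and 77.1 CPM in induced libraries, against 63.5 and 68.0 CPM in uninduced libraries. Both induced libraries lay above both uninduced ones, by 7.07 CPM at the nearest pair. IRE1 rose by 15.7% in its mean, a log2 fold change of 0.21 ± 0.07 (adjusted p = 0.0121), and 65.1% of all genes tested had a lower fold change. This small rise lost its call without uninduced library 1 (0.16, adjusted p = 0.0787), without induced library 2 (0.19, adjusted p = 0.0788), against a 1.2-fold change (adjusted p = 1.00) and in DESeq2 (adjusted p = 0.0523); its alternatives spanned 0.000576 to 1.00. For IRE1 the authors' deposited table gives an adjusted p of 0.357.

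HAC1 moved further than its sensor. It had 1241 and 1245 CPM in induced libraries, against 609 and 696 CPM in uninduced libraries. The means were 1243 ± 2.51 CPM in induced libraries and 653 ± 61.6 CPM in uninduced libraries (SD, n = 2 each), and the nearest libraries of the groups lay 545 CPM apart. The log2 fold change was 0.93 ± 0.06 (adjusted p = 3.61e-08), with a 95% interval of 0.79 to 1.07, a ratio of means of 1.90. Of all genes tested, 91.8% had a lower fold change. Its call held in the 16 alternatives run, with values from 0.84 (without uninduced library 1) to 1.2 (quantile normalization), and the authors' deposited table lists an adjusted p of 5.32e-05. Per coding length, HAC1 stood above 99.1% of 5710 genes in both induced libraries and above 95.8% and 96.4% of them in uninduced libraries.

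Within a library, the ratio of HAC1 to IRE1 does not depend on a scale factor applied to the whole library, though quantile normalization, which is not such a factor, would alter it. It was 16.5 and 16.1 in induced libraries, against 9.60 and 10.2 in uninduced libraries. KAR2, the ER chaperone that binds Ire1 and is itself a Hac1 target, had a larger fold change than HAC1 (2.45 against 0.93): the ratio of KAR2 to HAC1 was 4.22 and 4.27 in induced libraries, against 1.51 and 1.46 in uninduced libraries. These ratios overlapped in neither case and were not tested.

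Neither enzyme that completes the splicing reaction was called higher with the authors' scaling. TRL1, the tRNA ligase gene (chromosome X, 270002 to 272485, minus strand), had 31.7 and 28.5 CPM in induced libraries, against 39.7 and 38.5 CPM in uninduced libraries. Both induced libraries were lower, and the gap of 6.73 CPM exceeded the difference within either pair. TRL1 fell, with a log2 fold change of -0.37 ± 0.09 (adjusted p = 0.00191). Against a 1.2-fold change its adjusted p was 0.235 (0.000741 to 0.235 over its alternatives), and in the authors' deposited table it was 0.131. TPT1, the phosphotransferase gene (chromosome XV, 125997 to 126689, minus strand), had 35.8 and 38.1 CPM in induced libraries, against 35.3 and 34.6 CPM in uninduced libraries. The groups lay 0.554 CPM apart, less than the difference within either pair, and the fold change of 0.08 ± 0.08 did not pass (adjusted p = 0.393, 95% interval -0.10 to 0.25). With total-read scaling TPT1 was called higher (0.20, adjusted p = 0.0418; range over its alternatives 0.0418 to 1.00). The ratio of TRL1 to TPT1 was 0.887 and 0.747 in induced libraries, against 1.13 and 1.11 in uninduced libraries, and the ratio of HAC1 to TRL1 was 39.1 and 43.7 in induced libraries, against 15.3 and 18.1 in uninduced libraries.

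PTC2, which encodes the phosphatase acting on Ire1 (chromosome V, 335946 to 337340, minus strand), fell most of the 7 genes. It had 173 and 177 CPM in induced libraries, against 299 and 285 CPM in uninduced libraries. The means were 175 ± 2.50 CPM in induced libraries and 292 ± 10.4 CPM in uninduced libraries (SD, n = 2 each), with no overlap. Its log2 fold change was -0.73 ± 0.05 (adjusted p = 3.61e-08), so that the mean fell by 40.0%, and 13.6% of all genes tested had a lower fold change. The call held in the 16 alternatives run, with values from -0.77 to -0.61. In the authors' deposited table PTC2 had a log2 fold change of -0.74 and an adjusted p of 0.000252. The ratio of PTC2 to IRE1 was 2.31 and 2.29 in induced libraries, against 4.72 and 4.18 in uninduced libraries.

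ADA2 and GCN5, whose proteins sit in the same acetyltransferase module, were both lower. ADA2 (chromosome IV, 1356065 to 1357369, plus strand), the coactivator subunit, had 19.6 and 20.8 CPM in induced libraries, against 31.0 and 28.9 CPM in uninduced libraries. Groups were 8.05 CPM apart, more than either pair, and the log2 fold change was -0.55 ± 0.09 (adjusted p = 0.000176). Its call held in the 16 alternatives run (-0.60 to -0.43), whereas its adjusted p in the authors' deposited table was 0.0684. GCN5 (chromosome VII, 996869 to 998188, plus strand), the catalytic subunit, had 69.0 and 71.8 CPM in induced libraries, against 78.1 and 81.3 CPM in uninduced libraries. Both induced libraries lay below both uninduced ones, by 6.34 CPM at the nearest pair. The fall of GCN5 was small, -0.18 ± 0.06 (adjusted p = 0.0229). It lost its call with total-read scaling (-0.052, adjusted p = 0.472), in DESeq2 (adjusted p = 0.115), against a 1.2-fold change (adjusted p = 1.00), without uninduced library 2 (-0.15, adjusted p = 0.103) and without induced library 1 (-0.15, adjusted p = 0.132); its alternatives spanned 0.0147 to 1.00. GCN5 has an adjusted p of 0.413 in the authors' deposited table. The ratio of ADA2 to GCN5 was 0.284 and 0.290 in induced libraries, against 0.398 and 0.355 in uninduced libraries.

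**Figure D3:**
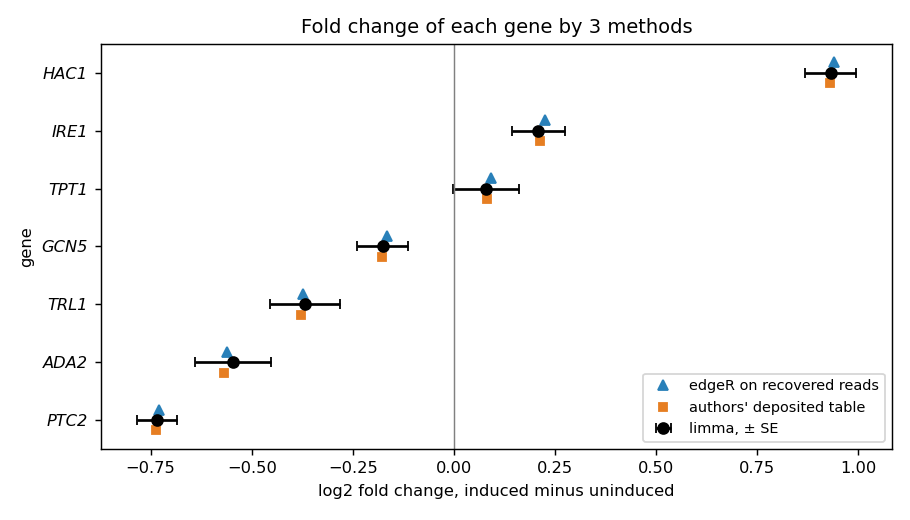
Log2 fold change of the 7 genes, induced minus uninduced, from limma with its standard error, from edgeR on recovered reads and from the authors' deposited table. HAC1 (0.93) lies far to the right of IRE1 (0.21), PTC2 (-0.73) lies farthest to the left, and the 3 methods give the same side of 0 for each gene.

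Levels between genes were compared per kilobase of coding length. HAC1 was highest at 1731 and 1736 CPM per kb in induced libraries, against 850 and 971 CPM per kb in uninduced libraries. PTC2 followed with 124 and 127 CPM per kb in induced libraries, against 215 and 204 CPM per kb in uninduced libraries. These were the highest of the 7 in each library. GCN5 was at 52.3 and 54.4 CPM per kb in induced libraries, against 59.2 and 61.6 CPM per kb in uninduced libraries. TPT1 was at 51.7 and 55.0 CPM per kb in induced libraries, against 50.9 and 49.9 CPM per kb in uninduced libraries. GCN5 and TPT1 thus could not be ordered in induced libraries, and GCN5 stood above TPT1 in uninduced libraries. IRE1 had 22.4 and 23.0 CPM per kb in induced libraries, against 19.0 and 20.3 CPM per kb in uninduced libraries. ADA2 had 15 and 16 CPM per kb in induced libraries, against 23.8 and 22.1 CPM per kb in uninduced libraries. The order of IRE1 and ADA2 was therefore opposite in the 2 groups, in each library of both. They were nearest in uninduced library 2 (20.3 and 22.1 CPM per kb, from 679 and 288 reads), and the order was not tested. TRL1 was lowest at 12.8 and 11.5 CPM per kb in induced libraries, against 16.0 and 15.5 CPM per kb in uninduced libraries, a level above 9.26% and 8.18% of genes with a coding length in induced libraries and above 13.1% and 12.6% in uninduced libraries.

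**Figure D4:**
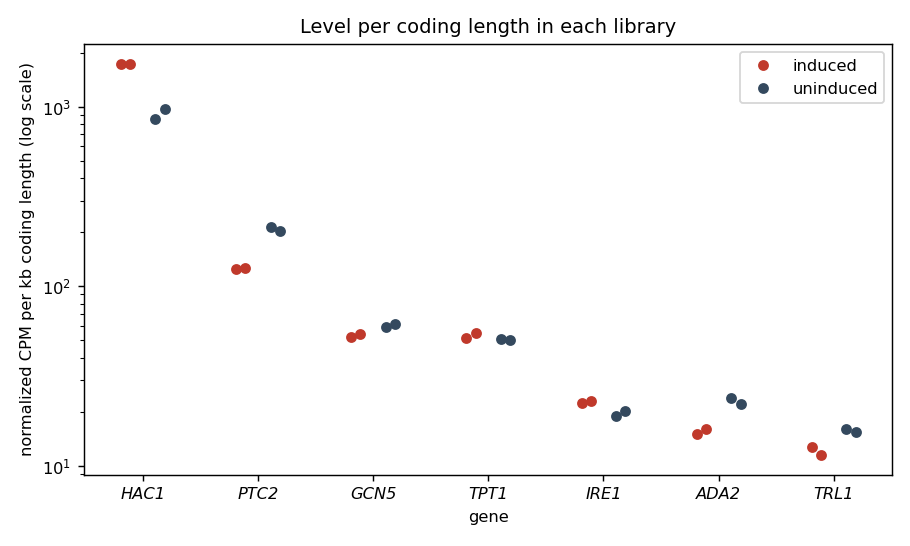
Normalized CPM per kilobase of coding length on a log scale for the 7 genes, with induced libraries left of uninduced ones; each point is a library. HAC1 stands above the other 6 genes in each library, and IRE1 lies above ADA2 in induced libraries and below it in uninduced ones.

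Overlapping reading frames may bear on these totals, since the sources used here give neither the strand setting nor how shared reads were assigned. The table describes dubious frames that overlap 3 of the 7 genes. By their systematic names, YFL032W, YER088C-A and YJL086C lie on the strand of the gene they overlap. There a strand setting would not separate the reads. YFL032W, which partly overlaps HAC1, had 4.30 and 9.06 CPM in induced libraries, against 5.86 and 2.10 CPM in uninduced libraries, and YFL031C-A, on the other strand of HAC1, was at or under 1.25 CPM in each library. YER088C-A, which overlaps PTC2, had 54.9 and 48.5 CPM in induced libraries, against 90.3 and 94.9 CPM in uninduced libraries, and so was lower along with PTC2. YER088W-B, also at PTC2, was under 1.5 CPM in each library. YJL086C, which partly overlaps TRL1, had at most 1 read in any library. The part of these frames in the results was not tested. None of the 50-base stretches of the 7 coding sequences occurs elsewhere in the reference genome.

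Hac1 binds elements called UPRE, and HAC1 is known to help maintain its own transcription. The 500 bases before each start codon were searched on both strands. The form CAGCGTG, found in the KAR2 promoter, was in 0 of the 7 windows, in 2 of 15 windows of textbook Hac1 targets and in 2.31% of 6019 protein-coding genes. The looser form CANCNTG, which includes the first, was in 4 of 7 windows (HAC1, TRL1, TPT1 and PTC2) and in 8 of 15 target windows, against 45.4% of all genes. The second element, TACGTG, was in 0 of 7 windows, in 7 of 15 target windows and in 13% of all genes. The match nearest to the HAC1 start codon, 215 bases before it, and the KAR2 element, 160 bases before its start codon, are shown with 10 bases on each side and the match in capitals; both lie on the strand of the gene.
HAC1, chrVI:74954-74980: tggttttgaaCACCTTGttctcttttg
KAR2, chrX:381157-381183: aggaactggaCAGCGTGtcgaaaaagt
A match describes these letters and shows no binding.

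Among 10 other genes known to act on Ire1, on Hac1 or on HAC1 mRNA, 4 rose and 3 fell, a called share near the 72.7% of all genes tested. Their median was 0.00, as it was over all genes tested. With total-read scaling 5 rose and 2 fell, and the median was 0.12 both for the 10 and over all genes. KAR2, also in the list of targets below, had 5239 and 5314 CPM in induced libraries, against 918 and 1015 CPM in uninduced libraries (2.45 ± 0.07, adjusted p = 1.64e-11). LHP1, an RNA-binding protein gene, had 57.4 and 61.5 CPM in induced libraries, against 97.3 and 107 CPM in uninduced libraries, and fell by 0.77 on the log2 scale (adjusted p = 4.45e-07). GCN4, the amino acid control factor that can act with Hac1 at target promoters, had 532 and 558 CPM in induced libraries, against 824 and 915 CPM in uninduced libraries, and fell by 0.67 (adjusted p = 4.05e-07). Both lay below their uninduced pair without overlap. DAS1, also named DUH1, an F-box protein that marks Hac1 made from unspliced mRNA for degradation, rose by 0.43 ± 0.07 (adjusted p = 5.87e-05), to 97.0 and 99.4 CPM in induced libraries, against 76.1 and 68.9 CPM in uninduced libraries. The Ire1 phosphatase gene DCR2 rose by 0.25 ± 0.07 (adjusted p = 0.00993), with 47.2 and 46.9 CPM in induced libraries, against 38.6 and 40.4 CPM in uninduced libraries. The fold changes of the kinase genes linked to HAC1 mRNA processing were 0.16 for PKH1, called higher, -0.21 for KIN2, called lower, and -0.02 for KIN1, not called (0.11 with total-read scaling and 0.10 with quantile normalization). KIN2 was not called with total-read scaling (-0.09). In DESeq2, DCR2 (adjusted p = 0.056) and PKH1 (adjusted p = 0.082) were not called. That tool called 5 of the 10 genes, against 63.3% of all genes tested. DCR2 had an adjusted p of 0.296 in the authors' deposited table. XRN1, the exonuclease gene, at -0.06, and YPT1, a Rab GTPase gene, at 0.01 were not called. With quantile normalization both were called higher (0.12 and 0.15), as was YPT1 with total-read scaling (0.14), where XRN1 was at 0.07 and not called.

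Trl1 and Tpt1 also serve tRNA splicing. Of 5 further genes of that pathway, SEN2 alone rose and SEN34 alone fell, 2 of 5 called against 72.7% of all genes tested. The median of the 5 was -0.09 (0.04 with total-read scaling, where the median over all genes was 0.12). SEN2, a catalytic subunit of the splicing endonuclease, had 79.0 and 83.6 CPM in induced libraries, against 61.0 and 53.3 CPM in uninduced libraries, and rose by 0.50 ± 0.08 (adjusted p = 5.44e-05). SEN34, the other catalytic subunit, had 16.5 and 15 CPM in induced libraries, against 22.3 and 21.3 CPM in uninduced libraries, and fell by 0.45 on the log2 scale (adjusted p = 0.00172). The structural subunits SEN15 (-0.03) and SEN54 (-0.15) and the tRNA exporter gene LOS1 (-0.09) were not called. With total-read scaling SEN15 (0.08) and LOS1 (0.04) lay on the other side of 0, also not called. Without uninduced library 1, the median of the 5 was -0.21, beside 0.00 over all genes.

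Of the 6 other type 2C phosphatase genes, 5 rose and 0 fell, while PTC2 fell; of all genes tested, 35.6% rose and 37.0% fell. The median of the 6 was 0.32, beside 0.00 over all genes. PTC1 had 70.5 and 73.0 CPM in induced libraries, against 44.2 and 41.4 CPM in uninduced libraries, and rose by 0.73 ± 0.07 (adjusted p = 9.03e-07). The log2 fold changes of PTC5 (0.44), PTC4 (0.38), PTC7 (0.25) and PTC6 (0.25) were also called higher. Only PTC1 and PTC5, 2 of the 6, had an adjusted p under 0.05 in the authors' deposited table, against 38.4% of its rows. PTC3, the closest relative of PTC2, had 268 and 250.1 CPM in induced libraries, against 268 and 253 CPM in uninduced libraries (-0.01 ± 0.05, adjusted p = 0.899; 0.12 with total-read scaling and 0.10 with quantile normalization, not called in either). The ratio of PTC2 to PTC3 was 0.648 and 0.707 in induced libraries, against 1.12 and 1.13 in uninduced libraries, so that PTC2 was the lower of the pair in induced libraries and the higher in uninduced ones. The difference between PTC2 and its relatives was not tested.

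Among 19 other subunits of SAGA and ADA, 4 rose and 9 fell, a called share near the 72.7% of all genes tested (35.6% higher, 37.0% lower). The median was -0.15, beside 0.00 over all genes. This split depended on scaling, as did that of all genes. With libraries scaled to total reads 7 rose and 6 fell, where 60.0% of the calls among all genes were higher. The median of the 19 was then -0.03, beside 0.12 over all genes. The largest falls were in SGF73 (-0.49 ± 0.06, adjusted p = 4.67e-06), of the deubiquitinase module, HFI1 (-0.46 ± 0.08) and TAF10 (-0.41 ± 0.08). SGF73 had 106 and 104 CPM in induced libraries, against 152 and 143 CPM in uninduced libraries. AHC2, a subunit of the ADA complex, rose most (0.49 ± 0.06, adjusted p = 1.5e-05), with 87.2 and 92.1 CPM in induced libraries, against 64.6 and 62.7 CPM in uninduced libraries. TAF9 (0.41 ± 0.07) and SGF29 (0.36 ± 0.08) rose as well. The value of ADA2, -0.55, lay below those of the 19 subunits, and that of GCN5, -0.18, near their median.

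All 15 textbook Hac1 targets listed rose, against 35.6% of all genes tested. Each was also called in the authors' deposited table, against 38.4% of its rows. The log2 fold changes of the targets ran from 1.10 (HRD1, an ERAD ubiquitin ligase gene) to 6.01 (ULI1), with a median of 1.92. The list was chosen with earlier results of these data known, so its count of calls is not an independent result. ULI1 had the highest fold change of the 6037 genes tested. ULI1 and the other targets with the largest values, ERO1 (2.78), an ER thiol oxidase gene, and SIL1 (2.53), an exchange factor gene for the Kar2 chaperone, exceeded the 0.93 of HAC1. HRD1, the lowest of the list, lay above HAC1 with the authors' scaling but below it with quantile normalization (1.15 for HRD1 and 1.2 for HAC1). Differences between genes in fold change were not tested.

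**Figure D5:**
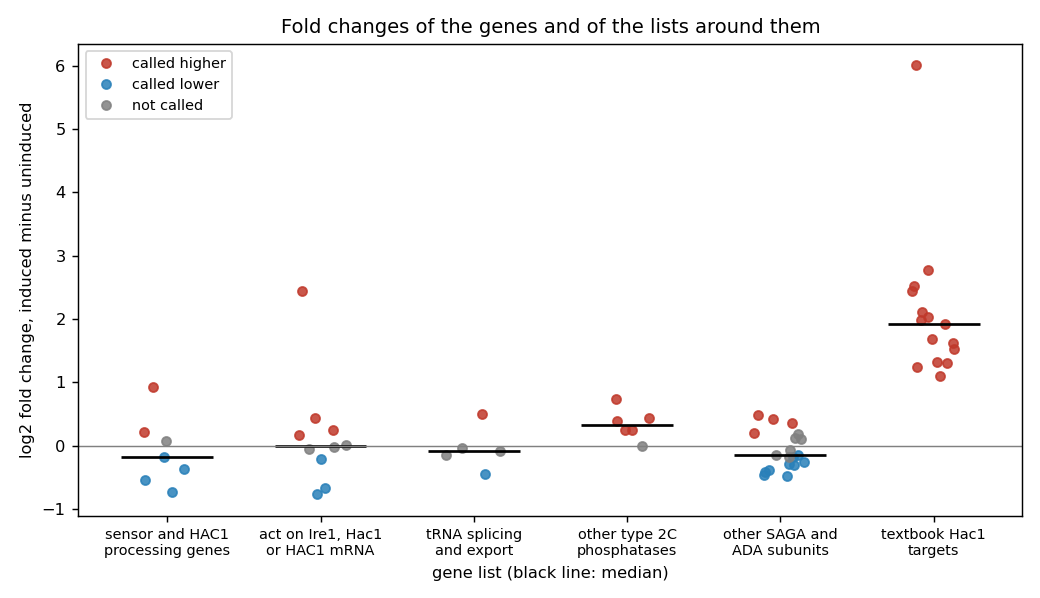
Log2 fold change of each gene, induced minus uninduced, for the 7 sensor and processing genes and the 5 lists around them; colours give the limma call and black lines the medians. The Hac1 targets lie between 1.10 and 6.01, while the genes that process or regulate HAC1 mRNA and the SAGA subunits lie on both sides of 0.

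The genes most like HAC1 over the 4 libraries, by the root mean square difference of log2(CPM + 1) after subtracting each gene's own mean, were CHS7 (0.03), which helps chitin synthase leave the ER, YHR045W (0.03) and ROX3 (0.03), a Mediator subunit gene. CHS7 had 238 and 243 CPM in induced libraries, against 114 and 137 CPM in uninduced libraries. For IRE1 they were DAP1 (0.0047), a heme-binding protein gene, KRE6 (0.0073), a glucan synthesis gene, and RAV2 (0.0082), a vacuolar ATPase assembly gene. DAP1 had 91.3 and 93.0 CPM in induced libraries, against 77.2 and 82.8 CPM in uninduced libraries. Such likeness is common with 4 libraries in 2 groups: of 3866 other genes with a mean of at least 50 CPM, 122 lay within 0.1 of HAC1 and 778 within 0.1 of IRE1.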

How the data were processed

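RNA was extracted with hot acid phenol and sequenced from TruSeq stranded mRNA libraries on an Illumina HiSeq, per the labels' protocols. The submitters' processing notes list TopHat2 2.0.13, HTSeq, edgeR and the builds sacCer3 and R64, and assign them no role; for annotation release, strand setting and filters the sources used here give nothing. The authors deposited 1 table of 6782 rows; its signal columns are CPM on a scaled library size, per the file headers and column sums (945865 to 1041888). The authors' log2 fold changes (their base was read off the values) and adjusted p-values were used as description only. Within 0.001 reads, 100% of values were whole multiples of 1 read in each column; the step of uninduced library 2, 0.100 CPM, is close to a round decimal, so this is weaker evidence there.

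Limma 3.58.1 (R 4.3.3) was run on log2(CPM + 1), fitting group alone with an intensity trend, two-sided, over genes with a mean of at least 1 CPM. DESeq2 1.42.0 and edgeR 4.0.16 were run on recovered reads as alternatives, and the 3 tools were tested on simulated data. Columns do not sum as plain CPM, which the design had assumed; the planned test was kept. Coordinates and coding lengths come from the R64 RefSeq annotation, a build the notes name. Genes named are the 7 genes, the genes of lists of up to 10 genes, the 3 largest called changes in each direction of the longer lists, overlapping frames and nearest patterns; HRD1 and the ratios were picked with their values in view. The genes and lists were chosen with earlier results of these data known. Replicates were compared before averaging: chi-square per degree of freedom was 5.04 for the induced pair and 4.71 for the uninduced pair, above sampling noise.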

Additional observations from a re-analysis of the deposited data

How the results depend on the processing

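Over 16 alternatives for each of 14 results, 206 of 224 values kept their direction and side of the threshold, or for counts stayed within 1.5 times, and no fold change of the 7 genes changed sign. HAC1, PTC2, ADA2 and the 15 Hac1 targets kept their calls in each alternative run. Against a 1.2-fold change, calls over all genes were 2685 (4387 against no change), or 44.5% of the 6037 genes tested. Calls there were 3 of the 7 genes, 4 of 10 in the list acting on Ire1, Hac1 or HAC1 mRNA and 1 of 5 in tRNA splicing. For the other SAGA and ADA subunits they were 4 of 19, and for the other type 2C phosphatases 2 of 6. IRE1 (0.21), TRL1 (-0.37) and GCN5 (-0.18) lost their calls there, since that test asks for a larger change. With total-read scaling TPT1 was called (0.20) and GCN5 was not (-0.052). With DESeq2, IRE1 (0.22) and GCN5 (-0.17) were not called. Leaving out each library in turn gave 0.16 to 0.26 for IRE1 and -0.20 to -0.15 for GCN5. Without uninduced library 1 the count of calls in the tRNA splicing list also moved. The cause of the changes with scaling, tool or library was not tested. With 1 library left in a group, it is assumed to vary like the other group.

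Replicate numbers pair nothing stated in the labels, and same-numbered libraries did not deviate together (correlation across 5017 genes -0.01). With the replicate number as a block, 4512 genes and 6 of the 7 genes were called, with no change of call among the 7; IRE1 had adjusted p = 0.00625 and GCN5 adjusted p = 0.0147. The lowest count among the 7 genes was 241 reads, for ADA2, and deposited totals cannot show HAC1 splicing.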
